A study of Canis lupus familiaris with 4 samples.

Results

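The miR-148/152 family of miRNAs was followed in extracellular vesicles (EVs) of 2 canine mammary carcinoma cell lines. Its members are the rows cfa-mir-148a, cfa-mir-148b and cfa-mir-152 of the deposited miRNA table, taken by name, and they make up 3 of its 673 rows. CHMp was established from a primary mammary gland tumor and CHMm from a metastasis of the same dog, so each group is a single line from a single animal. The EVs were collected from serum-free medium after growth in medium with fetal bovine serum and the antibiotic gentamicin. Derivatives of both lines that carry luciferase were made in the same study, and whether the EVs came from these is not stated. EVs of CHMp are called pTDEs and EVs of CHMm mTDEs, with 2 replicate libraries each. The paper calls the replicates biological, and the labels do not say whether they came from separate cultures, so the p-values measure the spread between these libraries.

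miRNAs guide Argonaute proteins to complementary sites in mRNAs, mainly through the seed near their 5′ end, and miRNAs with the same seed are grouped as a family because they can pair with the same sites. miR-148a, miR-148b and miR-152 share their seed and are known to repress the DNA methyltransferase DNMT1. miR-148a is among the most abundant miRNAs of milk and of milk EVs, and its level in the mammary gland is high during lactation.

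The paper describes CPM values, that is, the reads of a row scaled so that each library totals 1000000, and the table holds whole numbers. Their low values are not spaced as CPM would be, and they were converted from a log scale, which turned the deposited 5400 of cfa-mir-148a in pTDE replicate 1 into 1914 CPM. The libraries held from 2330443 to 6296087 reads on the rows, both mTDE libraries being the shallower. A miRNA listed at 0 had no read counted, as values of a single read were listed. A level of 3 reads, 0.476 to 1.29 CPM depending on the library, was taken as the detection limit. As a check of the cell type, 7 epithelial miRNAs were summed. They reached 73.9 and 104 CPM in pTDEs against 23718 and 26413 CPM in mTDEs, and cfa-mir-200a, cfa-mir-200b, cfa-mir-141 and cfa-mir-429 were listed at 0 in both pTDE libraries. Markers of other sources were also read: cfa-mir-451 of red blood cells was at 123 and 465 CPM in pTDEs and 138 and 1423 CPM in mTDEs, and cfa-mir-122 of liver at 158 and 98.5 CPM in pTDEs and 364 and 570 CPM in mTDEs. The blood miRNA cfa-mir-144 was listed at 0 in every library, and the muscle miRNAs cfa-mir-1-1 and cfa-mir-206 together summed to 61.8 and 21.8 CPM in pTDEs and 0 in mTDEs. After the values were seen, other rows of these sources were read as well. cfa-mir-486-3p, of a miRNA abundant in red blood cells, was at 110 and 349 CPM in pTDEs and 486 and 1397 CPM in mTDEs. The muscle miRNA cfa-mir-133a, identical in value to cfa-mir-133c, was at 168 and 346 CPM in pTDEs and 0 and 111 CPM in mTDEs. The part of such sources in the family's levels was not tested.

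All 3 members were well above the detection limit in every library, in a fixed order of level. cfa-mir-148a was at 1914 and 1612 CPM in pTDE replicates 1 and 2 and at 1600 and 1504 CPM in mTDE replicates 1 and 2. It is the member known from milk, and its level in pTDE replicate 2 exceeded that in mTDE replicate 1 by little. cfa-mir-148b, its closest paralog, was at 423 and 608 CPM in pTDEs and at 426 and 897 CPM in mTDEs. Its values overlapped between the cell lines, and the library with the highest level was mTDE replicate 2. cfa-mir-152, whose gene is silenced by DNA methylation in several human cancers, was at 96.7 and 48.6 CPM in pTDEs and at 115 and 96.2 CPM in mTDEs. Its lowest value was that of pTDE replicate 2, and the ranges of the cell lines touched between 96.2 and 96.7 CPM. The lowest cfa-mir-148a value was above the highest of cfa-mir-148b, and the lowest cfa-mir-148b value was above the highest of cfa-mir-152. Levels are compared per read, and a library preparation can favor some miRNAs over others, so this order is of reads and not of molecules.

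**Figure D1:**
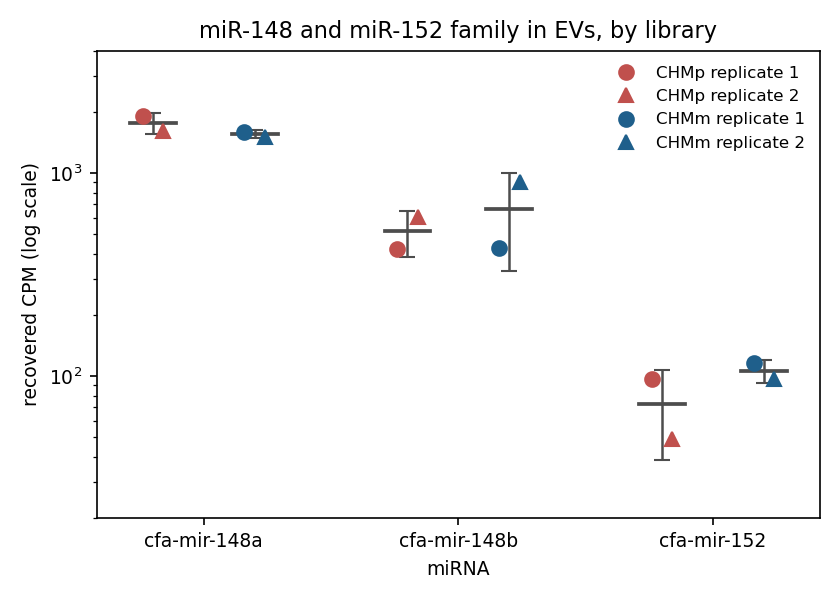
Recovered CPM (vertical axis, log scale) of the 3 members in each library; circles and triangles are replicates 1 and 2, horizontal lines the mean and error bars 1 SD (n = 2 per cell line). The members form 3 separate levels, cfa-mir-148a from 1504 to 1914 CPM, cfa-mir-148b from 423 to 897 CPM and cfa-mir-152 from 48.6 to 115 CPM.

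Counting error was small beside these values. cfa-mir-148a rested on 12050 and 8144 reads in pTDEs and 5531 and 3504 reads in mTDEs, and its 95% exact binomial interval was 1880 to 1948 CPM in pTDE replicate 1 and 1454 to 1554 CPM in mTDE replicate 2. The intervals of pTDE replicate 2 (1577 to 1647 CPM) and mTDE replicate 1 (1558 to 1642 CPM) overlapped, so the gap between these libraries was not resolved at this depth. cfa-mir-152 rested on the fewest reads, 609 and 246 in pTDEs and 399 and 224 in mTDEs. Its intervals of 89.2 to 105 CPM and 42.8 to 55.2 CPM in pTDE replicates 1 and 2 did not overlap, so that the spread between these replicates exceeded counting error. The same was true of cfa-mir-148b in both cell lines, with 407 to 439 against 587 to 630 CPM in pTDEs and 405 to 449 against 860 to 937 CPM in mTDEs. The replicate intervals of cfa-mir-148a did not overlap in either cell line, whereas those of cfa-mir-152 in mTDEs, 104 to 127 and 83.9 to 110 CPM, did. Such intervals leave out every error but that of counting, as PCR copies of a molecule are counted again.

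By rank, the family belonged to the upper part of the EV miRNAs without reaching the top. cfa-mir-148a ranked 52 of 342 and 53 of 347 rows above 0 in pTDE replicates 1 and 2, and 56 of 306 and 65 of 332 in mTDE replicates 1 and 2. cfa-mir-148b lay at ranks 88 and 80 in pTDEs and 90 and 82 in mTDEs. cfa-mir-152 lay lower, at ranks 138 and 154 in pTDEs and 123 and 152 in mTDEs. cfa-mir-148a took 0.191% and 0.161% of the reads in pTDEs and 0.160% and 0.150% in mTDEs.

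**Figure D2:**
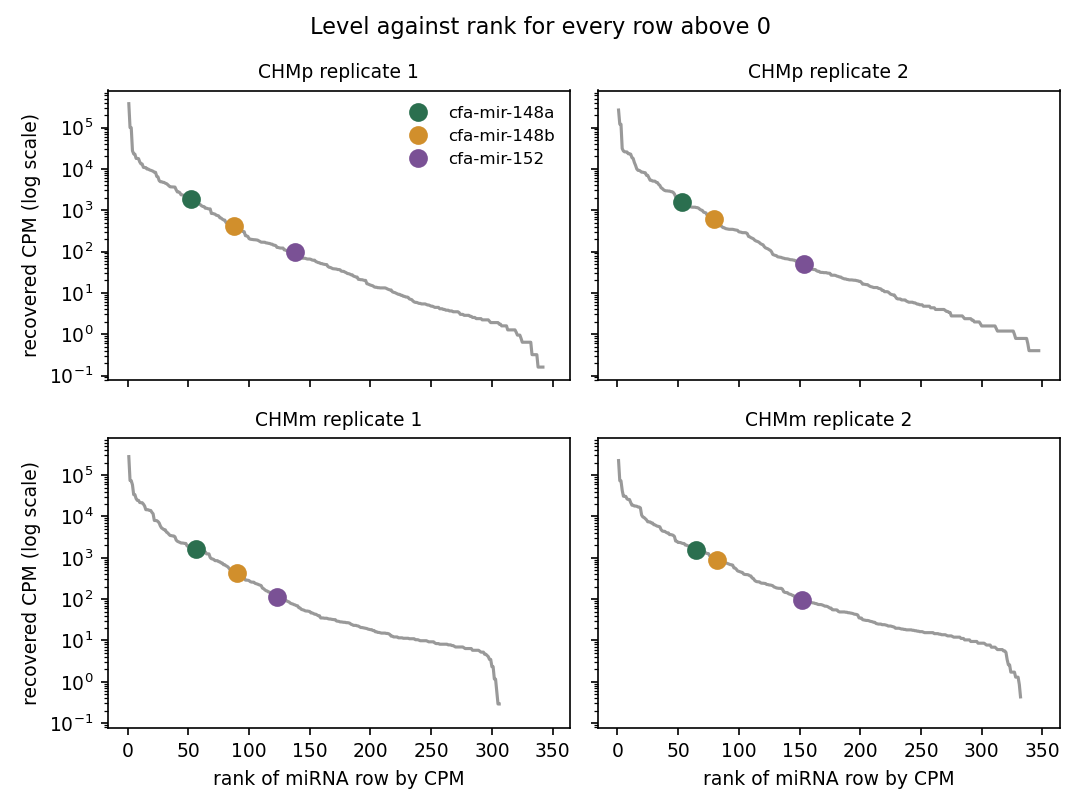
Recovered CPM (vertical axis, log scale) against rank (horizontal axis) for every row above 0, in a panel per library, with the members as colored points. cfa-mir-148a sits between ranks 52 and 65, cfa-mir-148b between 80 and 90 and cfa-mir-152 between 123 and 154.

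Summed over the members, the family reached 2434 and 2268 CPM in pTDEs and 2141 and 2497 CPM in mTDEs, a mean of 2351 ± 117 CPM against 2319 ± 252 CPM (SD, n = 2 each). The sums of the cell lines overlapped, the highest and the lowest both being mTDE libraries. cfa-mir-148a made up most of the sum everywhere, 78.6% and 71.1% in pTDEs and 74.7% and 60.2% in mTDEs. cfa-mir-148b gave 17.4% and 26.8% of it in pTDEs and 19.9% and 35.9% in mTDEs, being largest where cfa-mir-148a was smallest. cfa-mir-152 never exceeded 5.39%, and its lowest share was 2.14% in pTDE replicate 2.

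**Figure D3:**
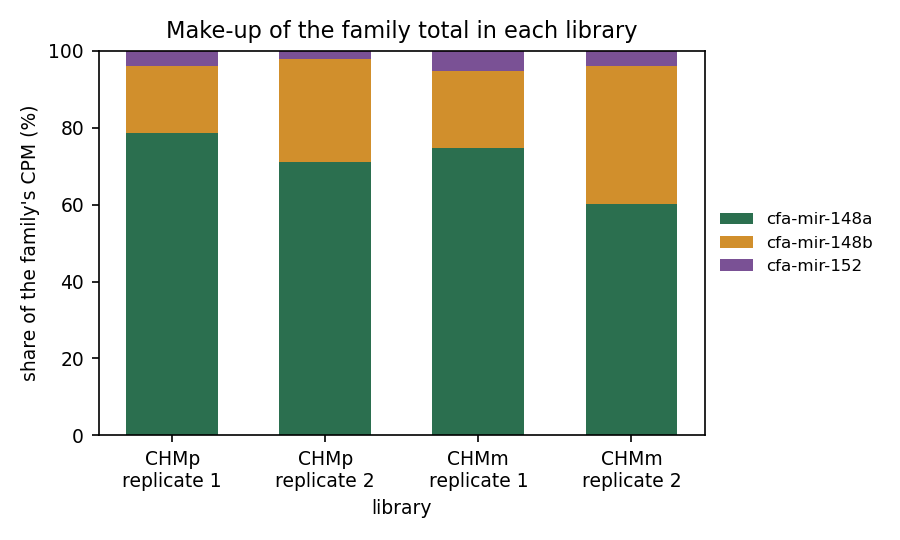
Share of each member (vertical axis, percent of the family's summed CPM) in each of the 4 libraries (horizontal axis). cfa-mir-148a takes from 60.2% of the sum in mTDE replicate 2 to 78.6% in pTDE replicate 1.

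A ratio of 2 miRNAs within a library does not depend on a size factor for that library, though it does on the conversion to CPM, and the balance between members was compared as well. cfa-mir-148a was 4.52 and 2.65 times cfa-mir-148b in pTDEs and 3.75 and 1.68 times in mTDEs. These ratios were interleaved between the cell lines, with a log2 ratio of 1.79 ± 0.55 in pTDEs and 1.33 ± 0.82 in mTDEs (SD, n = 2 each; two-sided exact permutation p = 0.667). The difference of 0.47 turned to -0.12 without mTDE replicate 2 and was 0.067 with the deposited numbers used as CPM. cfa-mir-148a was 19.8 and 33.1 times cfa-mir-152 in pTDEs and 13.9 and 15.6 times in mTDEs, so that both pTDE ratios were the higher. The log2 ratio was 4.68 ± 0.53 against 3.88 ± 0.12, a difference of 0.80 (SD, n = 2 each; two-sided exact permutation p = 0.333). With 2 libraries against 2, 0.333 is the smallest p the permutations can give, so no balance of members could pass 0.05 in this test. The difference ranged from 0.43 without pTDE replicate 2 to 1.17 without pTDE replicate 1, and was 0.17 with the deposited numbers used as CPM.

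The study sequenced EV miRNAs to look for those behind the effects of pTDEs. For the members, the lines were compared in a limma fit on log2(CPM + 1) over the 326 rows detected in every library of pTDEs, of mTDEs or of both. None of the 3 members passed an adjusted p-value of 0.05 in limma, and 0 passed an unadjusted 0.05. Of all rows tested, 1.84% passed the adjusted threshold and 19.6% the unadjusted threshold. In pTDEs cfa-mir-148a averaged 1763 ± 214 CPM, against 1552 ± 67.9 CPM in mTDEs (SD, n = 2), a log2 fold change (pTDEs over mTDEs) of 0.18 with a standard error of 0.35 (limma adjusted p = 0.798). Without pTDE replicate 1 this was 0.055 and without pTDE replicate 2 0.30. cfa-mir-148b averaged 516 ± 131 CPM against 662 ± 333 CPM, with a log2 fold change of -0.29 and a standard error of 0.57 (limma adjusted p = 0.798). Its sign turned without mTDE replicate 2, where the log2 fold change was 0.25, and with the deposited numbers used as CPM, where it was 0.074. cfa-mir-152 averaged 72.7 ± 34.0 CPM against 106 ± 13.6 CPM, with a log2 fold change of -0.61 and a standard error of 0.72 (limma adjusted p = 0.657). Without pTDE replicate 1 this was -1.10 and without pTDE replicate 2 -0.12, and with the deposited numbers used as CPM it was -0.025. With median-ratio scaling, which moved the median log2 fold change of all rows from -0.03 to 0.22, the members were at 0.42, -0.04 and -0.37, a shift that the scaling gives to all rows.

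A missed threshold does not show equal levels, and the intervals were wide. The 95% limma interval of the fold of pTDEs over mTDEs was 0.590 to 2.17 for cfa-mir-148a, 0.286 to 2.35 for cfa-mir-148b and 0.171 to 2.50 for cfa-mir-152. A change of cfa-mir-148a beyond 2.17-fold up thus lay outside its interval, whereas a cfa-mir-152 level in pTDEs as low as 0.171 times that in mTDEs did not. By size, the members' differences ranked 297, 284 and 226 of 326, and the median size was 0.29 for the members and 0.95 for all rows tested. Of the rows tested, 231 were above 0 in every library. The others entered through a single cell line, as cfa-mir-429 did with a log2 fold change of -11.3, and this selection favors a difference. Such ranks and medians are thus a description only. Each member was also set beside the rows within 4-fold of its own level, whose median size was 0.68 for cfa-mir-148a, 0.71 for cfa-mir-148b and 1.02 for cfa-mir-152. There 11 of 61 rows had a smaller difference than cfa-mir-148a, 12 of 72 a smaller one than cfa-mir-148b, and 28 of 99 a smaller one than cfa-mir-152. The rows near cfa-mir-152 in level include cfa-mir-429 and cfa-mir-200b, which entered through mTDEs alone, so these counts too are a description only.

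**Figure D4:**
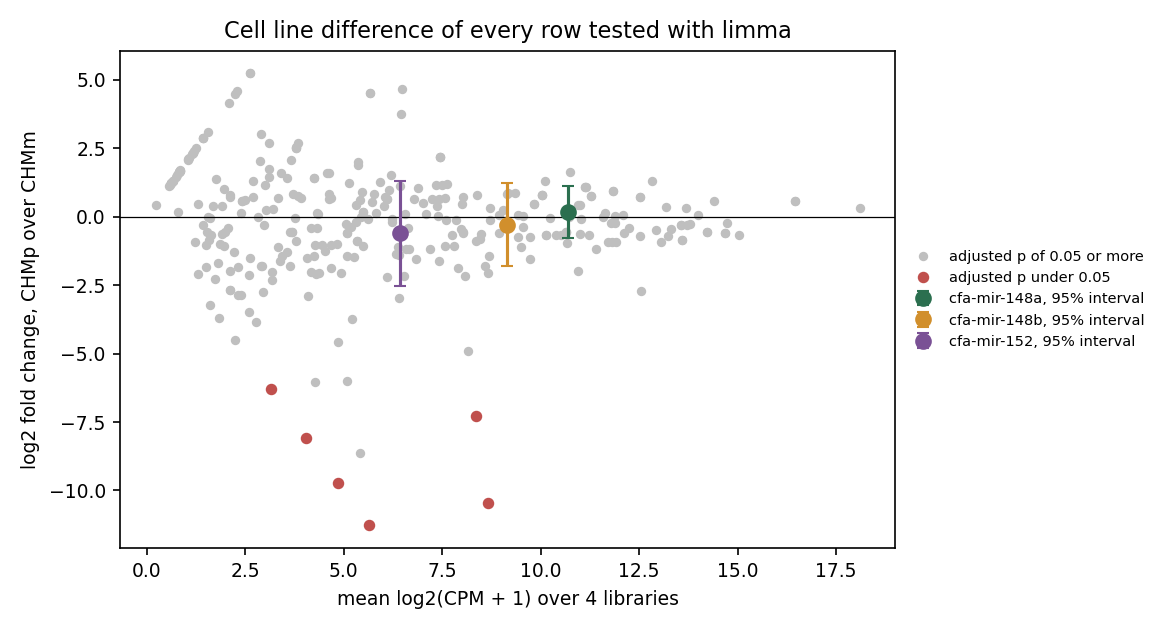
Log2 fold change of pTDEs (CHMp) over mTDEs (CHMm) (vertical axis) against mean log2(CPM + 1) (horizontal axis) for the 326 rows tested with limma; red points have an adjusted p under 0.05 and bars are 95% intervals of the members. The 3 members lie close to 0, at 0.18, -0.29 and -0.61, and every interval includes 0.

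The members differed in how closely the replicates came together. For cfa-mir-148a the replicates differed by 0.25 on the log2 scale in pTDEs and 0.09 in mTDEs. These differences were less than the medians of 0.62 over 267 rows and 0.82 over 240 rows of 10 or more reads per replicate, and only 17.6% and 4.58% of those rows lay closer together. cfa-mir-148b differed by 0.52 in pTDEs and 1.07 in mTDEs, with replicate 2 the higher in both. cfa-mir-152 differed by 0.98 in pTDEs and 0.26 in mTDEs, with replicate 1 the higher in both. The small spread of cfa-mir-148a was thus seen in both cell lines, whereas each of the other members had a replicate difference above the median in a single cell line.

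The rows whose profile over the 4 libraries was nearest to a member were sought among 228 other rows that averaged 10 CPM or more over the libraries, by the Euclidean distance of log2(CPM + 1) values centered on their own mean. Nearest to cfa-mir-148a were cfa-mir-21 (distance 0.29), the most abundant row, cfa-let-7g (0.30) and cfa-mir-28 (0.37). cfa-mir-28 was also near in level, at 1930 and 2061 CPM in pTDEs and 2260 and 2022 CPM in mTDEs. Nearest to cfa-mir-148b were cfa-mir-222 (0.21) and the predicted miRNAs cfa_novel_9 (0.38) and cfa_novel_1 (0.43). Like cfa-mir-148b, cfa-mir-222 was highest in mTDE replicate 2, with 23057 and 27096 CPM in pTDEs and 19913 and 42778 CPM in mTDEs. Nearest to cfa-mir-152 were cfa-mir-330 (0.31), cfa-mir-27b (0.32) and cfa-mir-181a-1 (0.37). The family members were not each other's neighbors. At a distance of 1.09, cfa-mir-148b ranked 61 among the rows nearest to cfa-mir-148a, and cfa-mir-152 ranked 39 at 0.95. With 4 points per profile such distances are a description only.

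The seeds of miR-130, miR-301 and miR-454 share most of their letters with this seed, shifted by a single base, and these miRNAs were read beside the family. Of their 5 rows, 3 were above 0 in all libraries. cfa-mir-454 was the highest, at 104 and 190 CPM in pTDEs and 68.8 and 247 CPM in mTDEs. cfa-mir-130b was at 65.8 and 26.7 CPM in pTDEs and 18.5 and 9.44 CPM in mTDEs, and cfa-mir-130a at 20.8 and 15.8 CPM against 12.7 and 9.44 CPM. Neither of these miR-130 rows passed the test (limma adjusted p = 0.400 and 0.673). The shifted family summed to 202 and 232 CPM in pTDEs and 100.1 and 279 CPM in mTDEs, below the miR-148/152 sum in each library.

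As miR-148a is known from milk EVs, 11 rows of other miRNAs often abundant there were read beside it. Of these, 7 lay above cfa-mir-148a in all 4 libraries, namely cfa-mir-30d, cfa-let-7f, cfa-let-7a-1, cfa-let-7a-2, cfa-mir-29a, cfa-mir-182 and cfa-mir-378. The let-7a rows are copies whose reads the counting could share. cfa-mir-30b lay above cfa-mir-148a in 3 libraries, and cfa-mir-146b, cfa-mir-141 and cfa-mir-200a in none. The highest of the list was cfa-let-7a-2, at 99812 and 121015 CPM in pTDEs and 74088 and 73290 CPM in mTDEs. In the comparison of the cell lines 2 of the 11 rows passed the adjusted threshold in limma, both lower in pTDEs, and 0 passed it upward, where 1.84% of all rows tested passed it. They were the epithelial miRNAs cfa-mir-141 and cfa-mir-200a, listed at 0 in pTDEs and at 76.1 and 77.7 CPM and 280 and 261 CPM in mTDEs. Both entered the test through mTDEs alone and so had to differ, and nothing about the list is read from their count. cfa-mir-146b, listed at 0 in mTDE replicate 1, entered it through pTDEs alone.

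The 3 genes lie on different chromosomes with related neighbors, by RefSeq's gene table of the dog assembly UU_Cfam_GSD_1.0. All 3 rows matched a gene there by name. MIR148B lies within COPZ1 and MIR152 within COPZ2, paralogous genes for the zeta subunit of the COPI vesicle coat, and MIR148A lies within no protein-coding gene. Each miRNA gene has a member of the NFE2 transcription factor family and of the CBX chromatin protein family among its 4 next protein-coding genes on the same side. These are NFE2L3 and CBX3 for MIR148A, NFE2 and CBX5 for MIR148B, and NFE2L1 and CBX1 for MIR152. The RNA-binding protein genes HNRNPA2B1 and HNRNPA1 lie on that side of MIR148A and MIR148B, and the sorting nexin genes SNX10 and SNX11 on that side of MIR148A and MIR152. Exon and intron positions and the strand were not analyzed here, and coordinates are left out because the authors used another assembly, CanFam3.1.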

How the data were processed

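Small RNA libraries of EVs from CHMp and CHMm cells, 2 per line, were analyzed, grouped by their titles. The paper names more than 1 sequencing instrument and read length and does not say which library used which. Their part in the differences between libraries was not tested. Per the paper's methods, the authors trimmed adapters and selected read lengths with cutadapt, merged both reads of a pair into 1 file per sample, and counted the reads of miRBase and newly predicted miRNAs with miRDeep2 against CanFam3.1. Reads outside the chosen lengths were dropped, and the part of this choice in the members' levels was not tested. Tool versions are not given in the sources used here. The members' rows are named as precursors, and which arm gave the reads was not analyzed. Reads of near-identical paralogs such as miR-148a and miR-148b could be shared.

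The paper describes CPM, and the values deposited for each library total 999989 to 1000010, as CPM would. They were handled as a score all the same, since their low values are not spaced as CPM would be. They were converted as 2^(value/s) - 1 with s solved per library for a total of 1000000 CPM (s from 426 to 495), and reads are CPM divided by the smallest step. After conversion, 60 of 60 distinct values under 5 CPM lay within 0.1 reads of a whole number, with the step fitted to low values. Every level printed rests on this conversion. Rounding of the deposited numbers changes CPM + 1 by at most 0.0814%, and a low CPM by a larger share of itself. The authors' own edgeR columns, deposited as log2 fold changes and log2 CPM, likelihood ratio scores, and p-values with false discovery rates, were not used.

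For the comparison of the cell lines, limma 3.58.1 in R 4.3.3 was fitted to log2(CPM + 1) with a trend and Benjamini-Hochberg adjustment. The prior degrees of freedom were 2.4. Python 3.11.15, numpy 2.4.6, pandas 2.3.3 and scipy 1.17.1 were used for the rest. The conversion and fit were also run on simulated data. These were made with the same formula, so they cannot show that the deposited numbers have this form. Other pseudocounts (0.1 and 5 CPM), row filters, scalings, limma voom, a replicate block and leaving out each library were tried as alternatives. Members, the milk, seed and marker lists and the tests were chosen with earlier results of these data known. Genes named are the members, these lists, and the 3 rows nearest in profile to each member. The list entries cfa-mir-486 and cfa-mir-133a-1 matched no row by name, and the rows cfa-mir-486-3p and cfa-mir-133a were read after the values were seen. Neighboring genes were examined after the values were seen.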

Additional observations from a re-analysis of the deposited data

How the results depend on the processing

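Across 14 other settings no member passed an adjusted p-value of 0.05 in limma. The adjusted p-values ranged from 0.501 to 0.971 for cfa-mir-148a, from 0.325 to 0.988 for cfa-mir-148b and from 0.520 to 0.961 for cfa-mir-152. cfa-mir-148a stayed above 0 and cfa-mir-152 below 0 in all of them. With a library left out they ranged from 0.055 to 0.30 and from -1.10 to -0.12, and with the deposited numbers used as CPM they were at 0.14 and -0.025. The log2 fold change of cfa-mir-148b, -0.29, was 0.074 where the deposited numbers stood in as CPM, and leaving out a library it ranged from -0.82 to 0.25, the highest being without mTDE replicate 2. The log2 ratio of cfa-mir-148a to cfa-mir-148b, 0.47 higher in pTDEs, ranged from -0.12 without mTDE replicate 2 to 1.05 without mTDE replicate 1. The summed family, at a log2 ratio of 0.02, was at 0.25 with median-ratio size factors and from -0.09 to 0.13 with a library left out. With a library left out, a lone library is assumed to vary like the other cell line.

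Over the 326 rows tested, 0 were higher and 6 lower in pTDEs at an adjusted p under 0.05 in limma. The number of rows tested changes with the row filter. The numbers were 28 and 11 with a pseudocount of 0.1 CPM, 39 and 11 with deposited numbers used as CPM, 5 and 11 with limma voom, 5 and 9 with median-ratio size factors, and 4 and 9 both without a trend and with known miRNAs only. They ranged from 0 to 57 and from 4 to 49 with a library left out; the cause was not tested. With identical rows counted once, the ranks of the mean levels of cfa-mir-148a, 55 in pTDEs and 65 in mTDEs, were 51 and 60.

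A fit with replicate as a block (pairing by number) cannot change a fold change in this balanced design, so the members' values of 0.18, -0.29 and -0.61 and the ratio differences of 0.47 and 0.80 are the same by construction. In it 0 rows were higher and 7 lower at an adjusted p under 0.05 in limma. The libraries share only a number: with 2 pairs, the deviations of same-numbered libraries over 231 rows correlated at 0.14. Depth limits cfa-mir-152 most, with 224 reads in the shallowest library.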
